A study of Mus musculus with 12 samples.

Results

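Thrap3 and its paralog Bclaf1 were followed through ribosome-bound and total RNA of adult mouse hearts with and without Rpl3l. They are 2 of the 55401 genes in the count table. Thrap3 was chosen because its ratio of ribosome-bound (IP) to total (Input) RNA differed between the genotypes in these same libraries, so its values are given below as a description and without a test. Bclaf1 was taken as its paralog and not for a measured value, and it was tested. The hearts were wild type (WT) or lacked Rpl3l (Rpl3l-/-, KO), a ribosomal protein gene of striated muscle whose paralog Rpl3 is expressed widely. For the IP libraries, hearts of both genotypes were put in cycloheximide at excision, and ribosomes were captured from them through an HA tag. Input libraries held RNA from whole heart homogenates. Each of the 4 groups (WT Input, KO Input, WT IP, KO IP) had 3 biological replicates, all poly(A)-selected and read as nanopore direct cDNA. The sources used here do not give the strain, the sex, the age beyond adult, the tagged protein or the cells that carry the tag. In bulk heart RNA, fewer cells of a type and less RNA per cell cannot be told apart.

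Thrap3 (also called TRAP150) and Bclaf1 (also called Btf) encode related nuclear proteins rich in serine and arginine. Thrap3 was first found with the thyroid hormone receptor and the Mediator complex, and it is known as a cofactor of PPARG and of the clock proteins CLOCK and BMAL1. Both proteins bind spliced mRNA, occur with the spliceosome, the exon junction complex and the export factors of TREX, and act in the processing and export of mRNAs, among them mRNAs of the DNA damage response. Bclaf1 is named for its binding to proteins of the BCL2 family.

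Thrap3 (ENSMUSG00000043962.16) lies on the minus strand of chromosome 4, from 126164082 to 126202760 in build GRCm38, and Bclaf1 (ENSMUSG00000037608.16) on the plus strand of chromosome 10, from 20312469 to 20344613. GENCODE lists 18 transcripts for Thrap3, of which 9 are protein-coding, 3 retain an intron and 2 are marked for nonsense-mediated decay. For Bclaf1 it lists 12 transcripts, with 3 protein-coding, 5 that retain an intron and 4 marked for decay. The files give 1 count per gene, so the transcripts of a gene were not told apart. The longest coding sequences have 2853 bases in Thrap3 and 2757 in Bclaf1, and in an alignment with gaps 69.9% of the 2442 bases placed opposite each other were identical, gaps not counted. A stretch of 120 bases aligned without gaps is shown as an example of how the paralogs differ, since the reads had to be assigned to one or the other. Of the gap-free windows of this length it held the most identities. Bases in capitals are identical in both, 83 of 120. The window spans 2 exons in each gene, chr4:126175444-126176299 on the minus strand for Thrap3 and chr10:20325984-20328105 on the plus strand for Bclaf1, and only its exonic bases are printed, 5′ to 3′.
Thrap3: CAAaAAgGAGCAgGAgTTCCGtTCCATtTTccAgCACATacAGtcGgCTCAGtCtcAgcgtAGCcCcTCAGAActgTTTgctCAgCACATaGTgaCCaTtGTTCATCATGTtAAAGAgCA
Bclaf1: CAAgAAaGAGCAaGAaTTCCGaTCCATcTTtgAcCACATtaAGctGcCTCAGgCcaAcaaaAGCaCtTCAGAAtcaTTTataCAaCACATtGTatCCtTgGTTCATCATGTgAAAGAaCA
Differences are spread through the window. The longest run of bases shared exactly by the coding sequences, AGTTCTAGGTCTCGTTCCAGA, has 21 bases and starts at coding base 136 in Thrap3 and 103 in Bclaf1. Of 2838 different 15-base words in the Thrap3 coding sequence, 10 (0.352%) also occur in that of Bclaf1 on either strand. The sources used here do not say how reads that fit more than 1 gene were assigned.

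Depth differed between the groups in the same order as some of the values below. Input libraries held 356705 to 443177 counts in WT and 169359 to 291040 in KO, and IP libraries 549358 to 684762 in WT and 443525 to 710868 in KO. Levels are given as CPM, the counts divided by the TMM-scaled library total and set to a common depth. In KO Input, 3 counts stand for 11.4 to 17.0 CPM. Rpl3l itself matched the labels in that it was lower in KO. In Input it was at 222 to 308 CPM in WT against 27.0 to 68.5 in KO, where it kept 18, 7 and 9 counts. In IP it was at 269 to 275 CPM in WT against 2.33 to 8.31 in KO. The heart identity of the samples was clear from cardiomyocyte markers, whose summed level was between 53154 and 67171 CPM in every library. Actc1 alone of these 9 markers was listed at 0 throughout. The fibroblast marker Tcf21 and the endothelial marker Cav1 were also listed at 0 in every group. Why these genes had no counts was not tested. In KO against WT Input and in KO against WT IP, none of the 40 tested markers of 7 cell types passed the test in either direction. Of all tested genes, 0.182% in Input and 0.0910% in IP were called (adjusted p under 0.05), shares at which 40 genes hold few calls or none. Nothing is read from this on the cell make-up of the hearts. The 5 erythroid markers all had negative values in KO against WT, with medians of -1.19 in Input and -1.17 in IP, and their summed level ran from 18276 to 165732 CPM in WT Input and from 16718 to 47594 CPM in KO Input. Their part in the values of Thrap3 and Bclaf1 was not tested.

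Thrap3 was low in KO Input and in no other group. In WT Input it had 26, 19 and 15 counts in replicates 1 to 3, or 64.8, 46.9 and 50.4 CPM. In KO Input it had 3 counts in each of the 3 libraries, or 11.4, 11.6 and 17.0 CPM. All KO Input libraries lay below all WT Input libraries, and the KO values stand at the 3 counts that limit what these libraries resolve. The group means were 54.0 ± 9.51 CPM (SD, n = 3) in WT Input and 13.3 ± 3.21 CPM (SD, n = 3) in KO Input, a log2 difference of -2.04 (SE 0.41). From summed counts, 9 against 60, KO Input had 0.237 of the WT level, with an exact 95% interval from 0.104 to 0.481 that covers counting error only. Of the 6596 genes tested, 19 had a lower KO against WT value in Input than Thrap3. Among all tested genes 0.0303% were called lower and 0.152% higher in KO Input (adjusted p under 0.05 with edgeR's quasi-likelihood test), and nothing is read from this for Thrap3, since the comparison is part of the one that chose it.

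On ribosomes the order was the other way round. Thrap3 had 40, 36 and 25 counts in WT IP, or 59.2, 61.7 and 44.0 CPM. In KO IP it had 36, 63 and 47 counts, or 84.0, 82.4 and 78.1 CPM. The KO IP libraries lay close together and above all WT IP libraries. The means were 55.0 ± 9.56 CPM (SD, n = 3) in WT IP and 81.5 ± 3.04 CPM (SD, n = 3) in KO IP, a log2 difference of 0.56 (SE 0.24). Summed counts, 146 against 101, gave a KO to WT ratio of 1.47 (exact 95% interval 1.13 to 1.92). In this comparison 0.0303% of all tested genes were called higher and 0.0606% lower.

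Within WT hearts, Thrap3 stood at the same level in both fractions to within its spread, with a log2 IP to Input difference of 0.02 (SE 0.27) and libraries that overlap. Within KO hearts IP was 6.31 times Input from summed counts, 146 against 9 (exact 95% interval 3.23 to 14.1), and the log2 difference was 2.63 (SE 0.38). The difference between these differences, the value that chose the gene, was 2.61 (SE 0.48) on the log2 scale. The 4 groups were thus ordered KO IP, WT IP, WT Input, KO Input, and of the neighbours in this order only WT IP and WT Input overlapped.

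**Figure D1:**
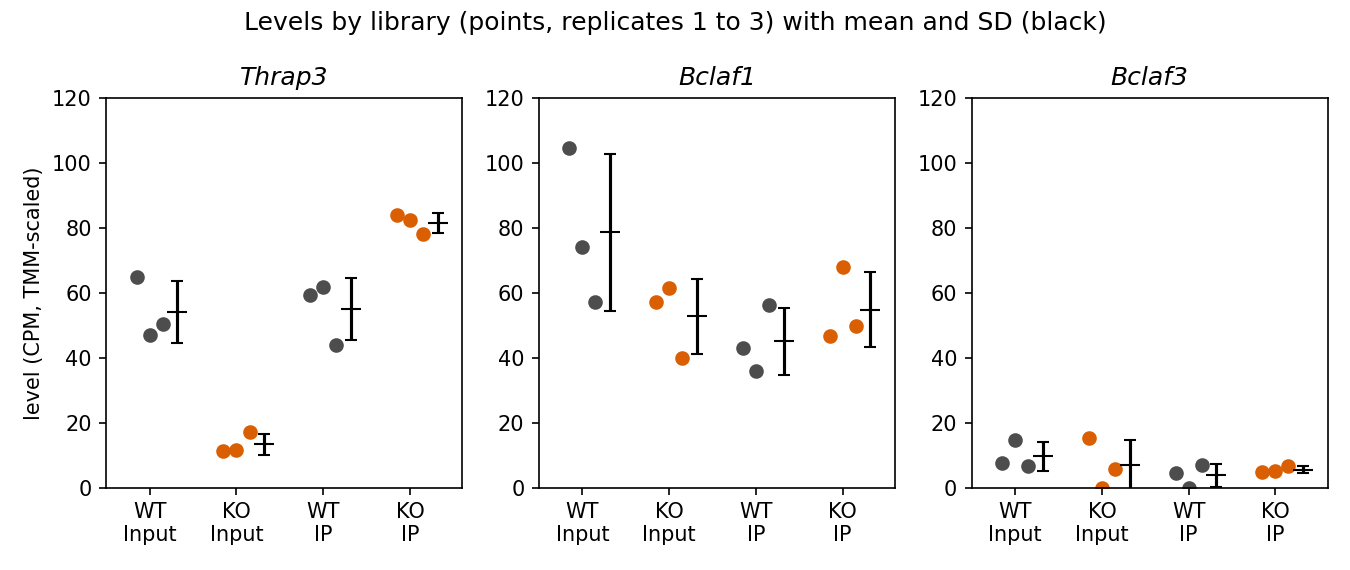
Levels of Thrap3, Bclaf1 and Bclaf3 in CPM (vertical axis) in the 12 libraries, grouped by genotype and fraction (horizontal axis). Points are libraries, grey for WT and orange for KO, and the black bars are the mean and SD of 3. Thrap3 in KO Input sits at 11.4 to 17.0 CPM, below every other library, while the Bclaf1 groups of both genotypes overlap in either fraction.

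The KO Input libraries were the shallowest, so the counts were also set side by side at 1 depth. For this, 169359 counts, the total of the smallest library, were taken from each library in a single random draw. Thrap3 then had 10, 8 and 8 counts in WT Input and 2, 2 and 3 in KO Input. It had 8, 8 and 7 counts in WT IP and 10, 12 and 11 in KO IP. KO lay below WT in all Input libraries and above WT in all IP libraries. At this depth so few counts carry a large error. They were drawn from the counts that chose Thrap3, so their order is a description and no further support. The transcript length at the middle of a library's counts was 1486 to 1852 bases in WT Input and 1612 to 1925 bases in KO Input, ranges that overlap. In IP it was 1645 to 2087 bases in WT and 1925 to 2287 bases in KO. The ranges of KO Input and KO IP meet only at their ends. With each library's trend with transcript length removed, the log2 difference of Thrap3 in Input was -2.02 (SE 0.41), and that of IP against Input in KO 2.47 (SE 0.38).

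Bclaf1 did not pass the test between genotypes in either fraction. In WT Input it had 42, 30 and 17 counts, or 105, 74.0 and 57.1 CPM. In KO Input it had 15, 16 and 7 counts, or 57.1, 61.6 and 39.8 CPM. The ranges overlap, with WT Input replicate 1 the highest of the 6. The means were 78.6 ± 24.1 and 52.8 ± 11.5 CPM (SD, n = 3 each), a log2 difference of -0.56 (SE 0.33, 95% interval -1.23 to 0.11, adjusted p 0.756 by edgeR), in a comparison where 0.182% of all tested genes were called. Without WT Input replicate 1 the log2 difference was -0.30. This interval does not reach the -2.04 of Thrap3 but overlaps the 95% interval of Thrap3 in the same fit, -2.90 to -1.19. The difference between the paralogs was not tested, because Thrap3 was picked for its value.

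In IP, Bclaf1 had 29, 21 and 32 counts in WT, or 42.9, 36.0 and 56.3 CPM, and 20, 52 and 30 counts in KO, or 46.7, 68.0 and 49.9 CPM. KO IP replicate 2 was the highest, and the other KO libraries lay inside the WT range. The log2 difference was 0.31 (SE 0.29, 95% interval -0.28 to 0.90, adjusted p 0.985 by edgeR), where 0.0910% of all tested genes were called. Without KO IP replicate 2 it was 0.10, and in libraries thinned to the smallest total it was -0.18.

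Between fractions, Bclaf1 was lower in IP than in Input in WT hearts by a margin just short of the threshold. The 3 WT IP libraries lay below the 3 WT Input libraries, with 56.3 CPM as the highest in IP and 57.1 as the lowest in Input. The log2 difference was -0.82 (SE 0.29, 95% interval -1.42 to -0.22, adjusted p 0.0593 by edgeR), in a comparison where 14.0% of all tested genes were called and 8.67% were called lower in IP. It passed in 5 of 22 alternatives, with adjusted p from 0.0230 to 0.683, the latter in thinned libraries, where the log2 difference was -0.37. In KO hearts the log2 difference was 0.05 (SE 0.33, 95% interval -0.62 to 0.72, adjusted p 0.949), where 16.4% of all tested genes were called, and the libraries of the 2 fractions overlapped. The difference between the KO and the WT value was 0.87 for Bclaf1 (SE 0.43, 95% interval -0.03 to 1.76, adjusted p 0.722 by edgeR), where 0.0910% of all tested genes were called, 0.0303% higher and 0.0606% lower. Its sign was that of Thrap3, and without any single library in turn it was between 0.60 and 1.05. In libraries thinned to the smallest total it was 0.30 (SE 0.60). The 4 groups were ordered WT Input, KO IP, KO Input, WT IP, and all neighbours in this order overlapped.

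The summed adipocyte and endothelial markers also differed between the IP and Input of WT hearts. The summed level of the 6 adipocyte markers was 111 to 658 CPM in WT Input and 14.8 to 52.8 CPM in WT IP, with Lep at 0 in IP, and both tested members were called lower in IP in WT and in KO. The 8 endothelial markers summed to 2343 to 3114 CPM in WT Input and 1674 to 2249 CPM in WT IP, with Cav1 listed at 0. Of the 7 tested endothelial markers 1 was called higher and 1 lower in WT. Of the 8 tested cardiomyocyte markers, 2 were called higher and 1 lower in WT, and 3 higher in KO. The fibroblast and macrophage markers had positive medians in WT (0.32 and 0.41), with none called, and in KO 1 fibroblast marker was called lower. In KO hearts, where Bclaf1 was at 0.05, the adipocyte and endothelial sums were lower in IP as well, the latter at 2761 to 3523 CPM in Input and 1736 to 1841 CPM in IP, with 3 markers called lower and 1 higher. None of the tested smooth muscle and pericyte or erythroid markers was called in either genotype. Of all 40 tested cell type markers, 3 were called higher and 4 lower in WT, and 4 higher and 6 lower in KO. Of all tested genes, 5.37% were called higher and 8.67% lower in WT, and 6.64% higher and 9.78% lower in KO. Beside these shares, nothing is read from the number of markers called. The part of the markers in the Bclaf1 values was not tested. Input and IP RNA were also purified by different methods, so that the method and the fraction cannot be told apart.

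**Figure D2:**
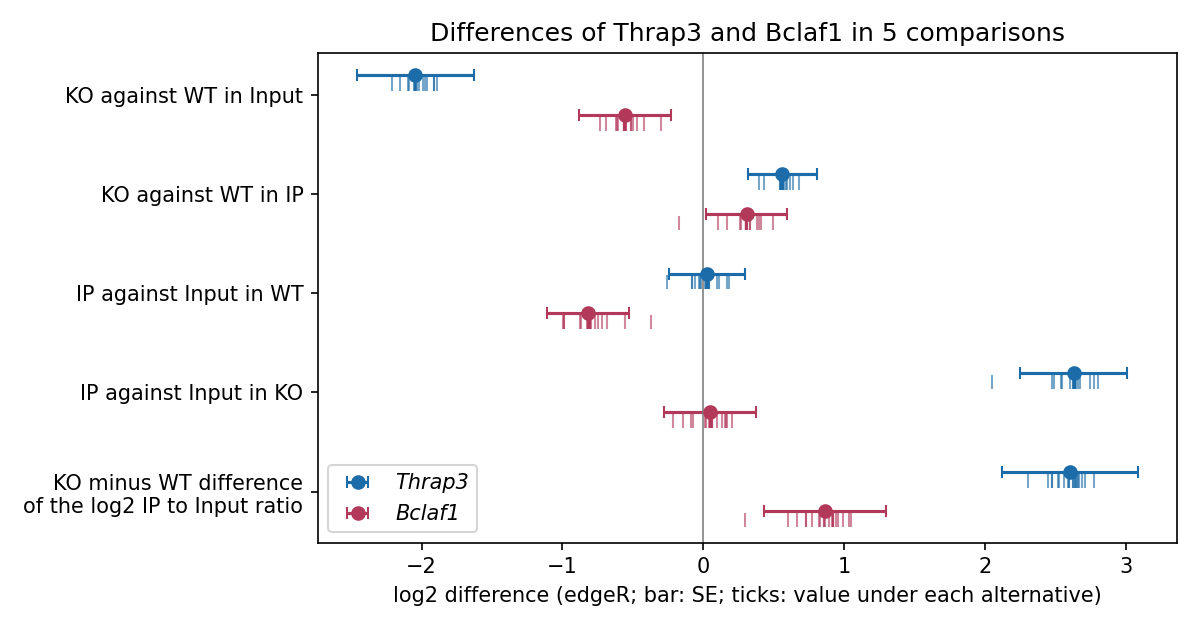
Log2 differences (horizontal axis) of Thrap3 in blue and Bclaf1 in red in 5 comparisons (vertical axis), with the SE of the edgeR fit as bars and the value under each alternative as ticks. Thrap3 lies at -2.04 for KO against WT in Input and at 2.63 for IP against Input in KO, and the ticks of both stay on their side of 0. Bclaf1 has its largest differences at -0.82 for IP against Input in WT and at 0.87 for the genotype difference of the ratio.

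The share of Thrap3 in the summed counts of both paralogs needs no scaling between libraries. It was 38.2%, 38.8% and 46.9% in the WT Input libraries and 16.7%, 15.8% and 30% in the KO Input libraries, where the last value rests on 10 counts. In WT IP it was 58.0%, 63.2% and 43.9%, and in KO IP 64.3%, 54.8% and 61.0%. The KO Input libraries were thus the lowest of the 12, and the WT IP and KO IP libraries overlapped. Summed over the group, the share was 40.3% in WT Input (exact 95% interval 32.3% to 48.6%, 60 of 149 counts) and 19.1% in KO Input (9.15% to 33.3%, 9 of 47 counts). It was 55.2% in WT IP (47.7% to 62.5%, 101 of 183 counts) and 58.9% in KO IP (52.5% to 65.1%, 146 of 248 counts). The genotypes had overlapping intervals in IP, where both genes were higher in KO by their means, and intervals that overlapped narrowly in Input. Since Thrap3 was chosen from these counts, the shares are a description.

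**Figure D3:**
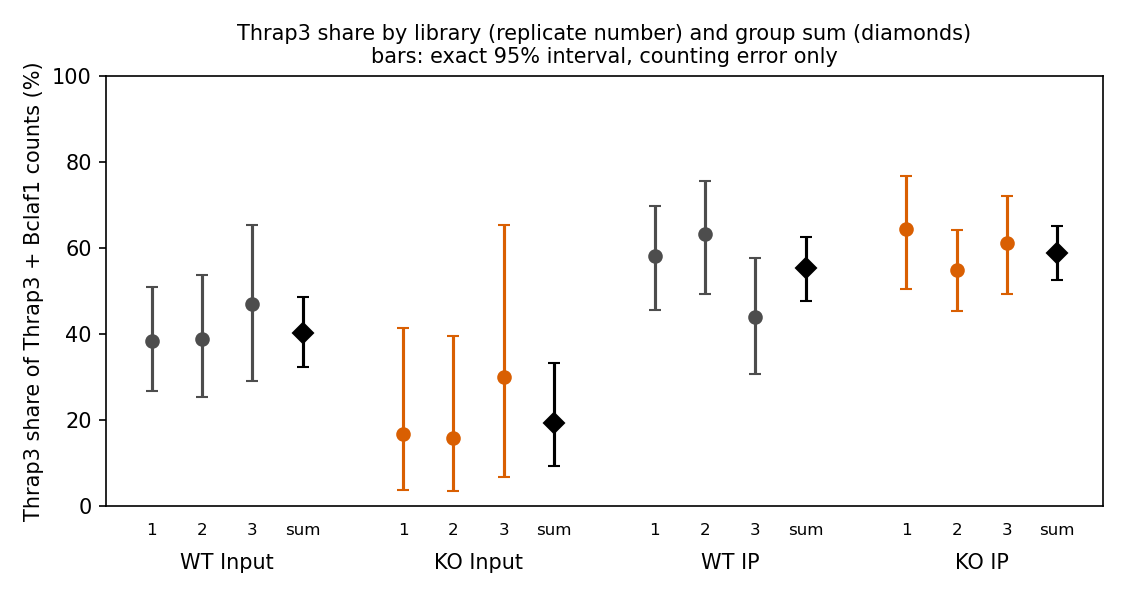
Share of Thrap3 in the summed Thrap3 and Bclaf1 counts in percent (vertical axis) for each library (circles, replicates 1 to 3) and each group's sum (diamonds), with exact 95% intervals that cover counting error only. The 3 KO Input libraries lie at 15.8% to 30%, below the 38.2% to 46.9% of WT Input.

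Per kilobase of the longest protein-coding transcript (4378 bases in Thrap3, 5437 in Bclaf1), the levels of the paralogs can be set beside each other. In WT Input, Thrap3 stood at 12.3 ± 2.17 and Bclaf1 at 14.5 ± 4.44 CPM per kilobase (SD, n = 3), which overlap. In KO Input the values were 3.05 ± 0.733 and 9.72 ± 2.12, with Thrap3 the lower in all 3 libraries. In IP Thrap3 was the higher by its mean, at 12.6 ± 2.18 against 8.29 ± 1.90 in WT, where the libraries overlapped, and at 18.6 ± 0.696 against 10.1 ± 2.12 in KO, where they did not. By group means, Bclaf1 was the higher of the paralogs only in the Input groups. Single WT libraries went the other way. Thrap3 was the higher in WT Input replicate 3 (11.5 against 10.5), and Bclaf1 in WT IP replicate 3 (10.4 against 10.1).

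Bclaf3, the remaining gene of the family, was scarce. It had 3, 6 and 2 counts in WT Input, 4, 0 and 1 in KO Input, 3, 0 and 4 in WT IP, and 2, 4 and 4 in KO IP. It did not reach the count filter and was not tested. Summed over a group its level was 3.83 to 9.96 CPM, with exact 95% intervals that overlapped between all groups, from 1.54 to 7.89 CPM in WT IP and from 4.97 to 17.8 CPM in WT Input.

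The genes with which Thrap3 and Bclaf1 work were taken from 8 lists of 108 genes, of which 107 had counts and 74 were tested. None of the 74 was called between genotypes in Input, in IP or in the IP to Input ratio, beside 0.182%, 0.0910% and 0.0910% of all tested genes, shares at which a list of this size holds few calls or none. At an unadjusted p under 0.05 there were 7, 6 and 7 of the 74 (9.46%, 8.11% and 9.46%), and 469, 343 and 463 of all tested genes (7.11%, 5.20% and 7.02%). The median log2 difference of the 74 was 0.00 in Input and 0.13 in IP, beside -0.01 and 0.00 over all tested genes. The member with the smallest p of each list went either way. Those of Input come first. Snw1, a spliceosome protein that shares the SNARP complex with both paralogs, was at -1.09 (SE 0.49). Acin1, which joins the exon junction complex through ASAP, was at -0.87 (SE 0.38), and Med10 of the Mediator at -1.18 (SE 0.52). Poldip3, an export factor that cooperates with TREX, was at -1.85 (SE 0.86), with a mean of 3.82 CPM in KO Input, under the 3 counts that limit these libraries. The thyroid hormone receptor Thrb was at -0.36 (SE 0.46). Positive values were found for the SR protein gene Srsf3 at 0.59 (SE 0.23), the m6A writer subunit Rbm15 at 0.95 (SE 0.62) and the kinase Clk1 at 0.41 (SE 0.32). The smallest adjusted p of these 8 was that of Srsf3, at 0.580. In IP, the list members with the smallest p were positive for Med16 (0.93, SE 0.35), Ncoa5 (0.87, SE 0.48), Prpf4b (0.76, SE 0.36), Thra (0.55, SE 0.22) and Thoc2 (0.52, SE 0.28). They were negative for Rbm15 (-1.18, SE 0.55), Srsf10 (-0.62, SE 0.28) and Magohb (-0.51, SE 0.54), and the smallest adjusted p, that of Med16, was 0.884.

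Between fractions, some of these genes were lower in IP. In WT, 13 of the 74 (17.6%) were called lower and none higher, beside 8.67% lower and 5.37% higher of all tested genes, and the median was -0.34 against 0.02 over all tested genes. In KO, 8 (10.8%) were called lower and 1 higher, beside 9.78% lower and 6.64% higher of all tested genes. The median in KO was -0.32 against 0.01, and the share called lower was near that of all tested genes. At an unadjusted p under 0.05 in either direction by edgeR, there were 19 of the 74 (25.7%) in WT and 22 (29.7%) in KO. These shares were near the 27.8% and 29.4% of all tested genes. Of the 13 lower in WT, 5 were also called lower in KO (38.5% of the WT calls and 62.5% of the KO calls), namely Clk1, Clk4, Rbm39, Srsf5 and Srsf6. Over all tested genes, 360 were called lower in both, of 572 in WT and 645 in KO (62.9% and 55.8%). Clk1 and Clk4, kinases that phosphorylate SR proteins, had the lowest values. Clk1 went from 109 ± 29.8 CPM in WT Input to 15.2 ± 5.95 in WT IP (log2 difference -2.80, SE 0.38, adjusted p 8.37e-06) and was at -3.16 in KO (SE 0.39, adjusted p 1.87e-06). Clk4 was at -2.47 in WT (SE 0.47, adjusted p 0.000672) and -2.12 in KO (SE 0.50, adjusted p 0.00410). The kinase Prpf4b was called in WT alone (-1.93, SE 0.34, adjusted p 0.000276), and the genotype difference of its ratio did not pass (1.08, SE 0.49, adjusted p 0.698).

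All 11 tested SR protein genes had negative values in both genotypes, and 4 were called in each. Under alternatives that tested all 11, up to 2 of them turned positive in WT (in 5 of 21 alternatives, library totals among them) and 1 in KO (in 11 of 21, DESeq2 size factors and library totals among them). These splicing factors carry a serine and arginine rich domain. In WT the called ones were Srsf5 (-0.96), Srsf6 (-0.89), Srsf7 (-0.81) and Srsf11 (-1.15), and in KO Srsf1 (-0.77), Srsf3 (-0.72), Srsf5 (-0.68) and Srsf6 (-0.996). Among the SNARP and splicing partners, Rbm39 was called in WT (-1.37, SE 0.19, adjusted p 8.86e-06) and in KO (-1.32, SE 0.19, adjusted p 2.66e-05). Pnn (-1.10), Srrm2 (-0.84) and Son (-0.73), proteins of the nuclear speckles, were called in WT. Of the export factors, Erh (-1.32) and Thoc7 (-0.85) were called in WT. No tested gene of the exon junction, m6A writer or transcription factor lists was called in either genotype, with 9, 3 and 3 tested. Of the 18 tested Mediator genes none was called in WT, while in KO Med21 was lower in IP (-1.62, SE 0.35, adjusted p 0.00180) and Med15 higher (1.85, SE 0.62, adjusted p 0.0404). The call of Med15 was lost in 9 of 20 alternatives, with adjusted p up to 0.316, among them the removal of each KO library in turn except KO IP replicate 3. With the sign unchanged, Srsf7 and Thoc7 in WT each lost their call in 13 alternatives and Pnn in 6. In KO, Srsf1 lost it in 12, Srsf5 in 10 and Srsf3 in 8 of 22, so that Srsf5 belongs to the genes called in both genotypes in only some of them.

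With these genes as the frame, Bclaf1 in WT, at -0.82 and itself not called, lay among the SR protein genes that were called. Thrap3 in WT, at 0.02, lay above the median of the 74. In KO, Bclaf1 at 0.05 lay above all 11 tested SR protein genes and above the median of the 74, -0.32. In KO, Thrap3 at 2.63 was above all 74, whose highest value was 1.86 for Poldip3. Poldip3 had a mean of 3.82 CPM in KO Input, under the 3 counts that limit these libraries. Thrap3 was chosen for the genotype difference of its IP to Input ratio. Its place above the 74 in KO reflects that choice and is a description. No test was made of where the members lie among these genes.

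**Figure D4:**
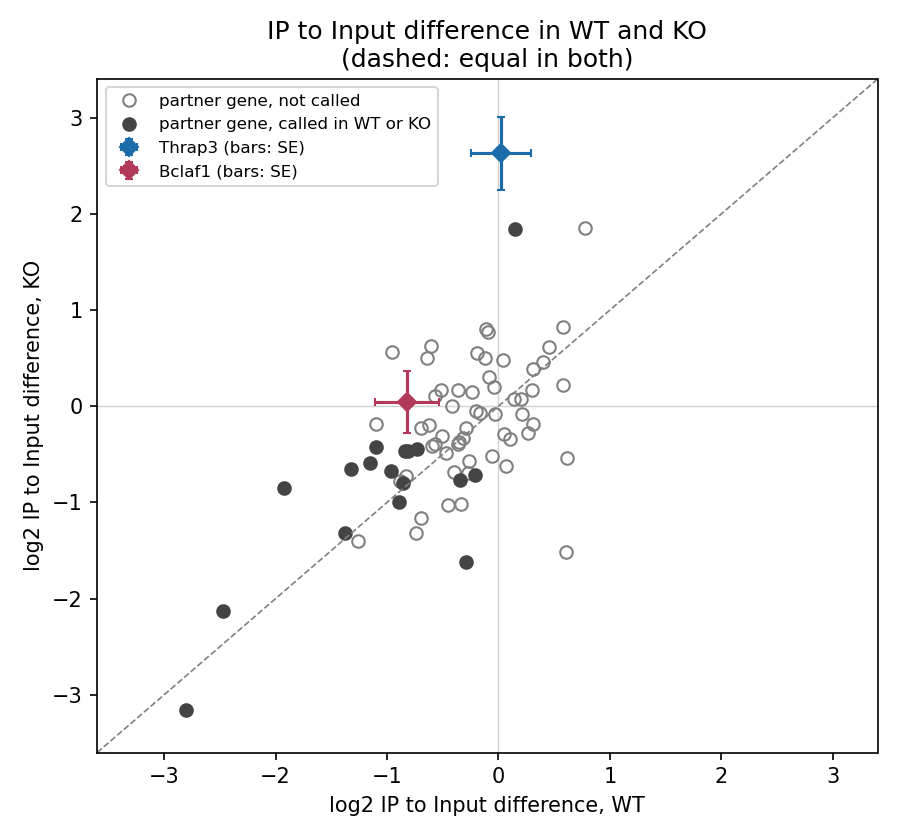
Log2 IP to Input difference in WT (horizontal axis) and in KO (vertical axis) for the 74 tested partner genes, filled where called in either genotype, and for Thrap3 and Bclaf1 with the SE as bars. The dashed line marks equal values. Clk1 is the lowest in both, at -2.80 and -3.16. Thrap3, which was chosen for its distance from this line, lies far above it at 0.02 and 2.63.

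The genes whose log2 CPM over the 12 libraries was most like that of each member were looked up among 6024 genes with a mean of at least 20 CPM. The likeness covers differences between the 4 groups as well as between libraries, and the values share library depth. For Thrap3 the 5 most alike were Gsk3b (0.92), Eif4ebp2 (0.91), Srcap (0.90), Sdha (0.89) and Prps1 (0.88), as correlation coefficients. Genes chosen for likeness to Thrap3 share its group pattern by that choice, and their levels are a description. Srcap, a chromatin remodelling ATPase, was at 36.5 ± 7.95 CPM in WT Input, 14.6 ± 2.89 in KO Input, 31.2 ± 5.81 in WT IP and 54.1 ± 10.6 in KO IP. Eif4ebp2, an inhibitor of the cap-binding factor eIF4E, was at 58.2 ± 12.3, 23.5 ± 6.72, 74.4 ± 10.5 and 76.7 ± 11.8 CPM in the same order. Gsk3b, a kinase, was at 70.9 ± 16.5, 40.0 ± 10.3, 81.4 ± 15.7 and 95.4 ± 23.1 CPM. For Bclaf1 the 5 most alike were Utp11 (0.86), Dpy30 (0.85), Nfyc (0.83), Olfr1033 (0.83) and Rhoa (0.82), chosen in the same way. Bclaf1 itself came at place 2894 for Thrap3, with a coefficient of 0.06.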

How the data were processed

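The deposited files hold whole read counts per gene, 1 library per file, for 12 libraries in 4 groups taken from the sample titles. The submitters' processing notes name minimap2 2.14, DESeq2 1.34.0 and build GRCm38, and the sources used here do not give the counting rule. Gene IDs were matched without version to GENCODE M21, 55141 of 55401. Counts were tested with edgeR 4.0.16 (limma 3.58.1, R 4.3.3): filterByExpr (minimum count 10, minimum total 15) kept 6596 genes, and a quasi-likelihood model with TMM factors and a mean for each group took in all 12 libraries. Benjamini-Hochberg adjustment of p ran over all tested genes in each of 5 contrasts, with a threshold of 0.05. Intervals of counts are exact at 95% and cover counting error only. Alternatives were other scalings, filters, tests (DESeq2 1.42.0, limma-voom), fits of only the compared libraries, a replicate block, thinning, removal of the length trend (loess span 0.5) and each library left out. The partner genes were run under the same alternatives after seeing the data. The fit was tested on simulated data, with 100 genes changed by 1 and 100 by 2 on the log2 scale. For KO against WT in Input it called 30% and 82% of them. For the genotype difference of the ratio it called 8% and 51%, so a gene without a call may still differ.

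The members and lists were chosen with earlier results of these data known. Named genes are the family, Rpl3l as the check of the labels, per list and contrast the called members or the one with the smallest p (not all are printed), and the 5 genes most alike by Pearson correlation of log2 CPM (prior count 2). Same-numbered libraries did not pair (correlations of their deviations -0.115 to 0.0423, the own number best in 1 of 18 cases), and the replicate numbers were not used. Whether the biological replicates are separate hearts in both fractions is not given.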

Additional observations from a re-analysis of the deposited data

Results flagged for a closer look

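Among Bclaf1 and the 74 tested partner genes, 1 was picked out because its KO libraries lay on opposite sides of its WT libraries in the 2 fractions. The share of all tested genes that meet the same rule is not given here, so nothing is read from this count. Alyref, an adaptor that hands mRNA to the export receptor, stood at 35.7 ± 9.38 CPM in WT Input and 54.7 ± 8.35 in KO Input, and at 54.1 ± 9.81 in WT IP and 38.7 ± 4.89 in KO IP (SD, n = 3). The KO minus WT difference of its log2 IP to Input value was -1.15 (SE 0.44), with the opposite sign to that of Thrap3, and did not pass over all genes (adjusted p 0.605 by edgeR).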

How the results depend on the processing

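Thrap3 kept its sign in all alternatives for KO against WT in Input (-2.21 to -1.89), KO against WT in IP (0.39 to 0.68), IP against Input in KO (2.05 to 2.80) and the genotype difference of the ratio (2.31 to 2.77). In libraries thinned to the smallest total, the last 2 were 2.05 and 2.31 and IP against Input in WT was -0.26. Each was further from the reported value than the spread between replicates. All thinned values come from a single random draw, and the spread between draws was not measured. Bclaf1 did not pass between genotypes under any alternative (adjusted p 0.668 to 0.995 in Input, 0.851 to 1 in IP, 0.620 to 1.000 for the ratio). Its IP against Input difference in WT passed with at least 30 counts in 3 libraries (-0.87, adjusted p 0.0389), limma-voom (-0.82, 0.0452), only the compared libraries (-0.82, 0.0454), the length trend removed (-0.99, 0.0230) and without WT Input replicate 3 (-0.99, 0.0438), and ranged from -0.99 to -0.56 without single libraries. Its smallest size was -0.37 in thinned libraries (adjusted p 0.683), where its KO minus WT difference of this value was 0.30 against 0.87. The cause was not tested. Its KO against WT value in IP turned to -0.18 in thinned libraries. Its IP against Input value in KO, near 0, turned to -0.076 in thinned libraries and -0.22 with the length trend removed, and ranged from -0.14 to 0.17 without single libraries. With the replicate block, the KO against WT values in Input were -0.56 for Bclaf1 (adjusted p 0.810) and -2.05 for Thrap3, and no call of Bclaf1 changed. Called genes numbered 12 in Input, 6 in IP and 6 for the ratio, and 77, 55 and 37 with no filter. Under the other settings they ran from 4 to 17 in Input, 2 to 11 in IP and 0 to 8 for the ratio. Between fractions, 926 genes were called in WT and 1083 in KO, and in thinned libraries 443 and 661. Without WT Input replicate 1 the WT count was 601. The 74 partner genes, whose alternatives were added after seeing the data, gave no call between genotypes under any setting. Those called lower in IP numbered 13 in WT and 6 in thinned libraries (8 to 13 without single libraries, with 8 without WT IP replicate 2). In KO they numbered 8, and 5 with library totals, with no filter and with the DESeq2 test, 4 in thinned libraries, and 5 to 9 without single libraries (5 without KO IP replicate 2, KO IP replicate 3 or KO Input replicate 2). With library totals the median of all genes moved to 0.11 for KO against WT in IP and for IP against Input in WT, and to 0.15 for IP against Input in KO. Thrap3 in KO Input rests on 9 counts, which limits all its values there. All alternatives use the counts that chose Thrap3, so its values under them are a description.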
